A study of Mus musculus with 9 samples.

Results

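The cytoplasmic ribosomal protein (RP) genes were followed in single cells of 5 EP ZFTA-RELA tumors, a mouse model of supratentorial ependymoma, and 4 control mouse brains. Members were chosen by symbol alone. A gene counted as a member if its symbol was Rpl or Rps followed by a number and at most one of the letters a, l or x, or was Rplp0, Rplp1 or Rplp2. This gave 79 of 32289 listed features, of which 49 encode proteins of the large ribosomal subunit and 30 of the small one. Tumor-bearing mice had the genotype NestinCreERT2;Fus1, in which the ZFTA-RELA fusion is switched on in embryonic radial glia by a Cre under the Nestin promoter. Controls had the genotype NestinCreERT2;TdT, so both groups carried the Cre. TdT, a tdTomato reporter, is named in the controls' genotype alone, although the study's text also describes tdTomato signal in tumor-bearing mice. Mice were 6 to 8 weeks old. By the study's methods, tumor or brain tissue was cut out without choroid plexus. Cells with choroid plexus markers were still found, 20, 29, 47 and 42 in control replicates 1 to 4 and 46 in tumor replicate 1. Tumor replicates 2 to 5 had 0, and the part of this in the results was not tested. The tissue was dissociated, passed through Percoll and stained for dead cells and for the erythroid antigen Ter119. A stain for the leukocyte antigen CD45 is named in the study's methods. Cells were sorted by a gate that the labels do not state, and profiled by droplet-based 5′ single-cell RNA-seq. The study also describes sorts of CD45+ cells, whereas these libraries held neurons and glia, so whether CD45 was used to select these cells is not known here.

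The ribosome is built from ribosomal RNA and these proteins, and it carries out all protein synthesis in the cytoplasm. RP mRNAs are among the most abundant of any cell, and their genes are switched on together in growing cells. Many of these mRNAs begin with a C followed by a run of pyrimidines, the terminal oligopyrimidine (TOP) tract through which mTOR controls their translation. Cells that divide or are activated, such as tumor cells and lymphocytes, are known for a high RP mRNA content.

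The promoters of the members are shown here because the TOP tract and an ETS-type motif are features that the choice by symbol did not use. RefSeq (GRCm38.p6) gave a promoter for 59 of the 79 members. At the annotated start, 13 of the 59 members (22.0%) had a C followed by 4 pyrimidines, against 3.01% of 27025 genes with a promoter in the same table. The motif CCGGAAG, searched on both strands over 300 bases, was present in 24 members (40.7%) and in 9.93% of all genes. ATGGCGG was present in 10 members (16.9%, against 4.69%), GGGCGG in 35 (59.3%, against 38.2%) and TATAAA in 6 (10.2%, against 15.7%). These are matches of letters, and annotated starts can lie off the start that is used.

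Windows of 100 bases before and 20 bases from the annotated start are printed 5′ to 3′ for 3 sets of members. Capitals mark CCGGAAG or its reverse complement and, in the last set, the C and 4 pyrimidines at the start. The first set holds the 3 members with a RefSeq promoter whose share of the RP total was called higher in tumors by the widest margin, at chr5:115559367-115559486 (plus strand) for Rplp0, chr7:45717971-45718090 (plus strand) for Rpl18 and chr17:24719963-24720082 (plus strand) for Rps2.
Rplp0: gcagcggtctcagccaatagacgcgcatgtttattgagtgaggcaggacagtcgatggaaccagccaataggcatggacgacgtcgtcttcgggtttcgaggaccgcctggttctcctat
Rpl18: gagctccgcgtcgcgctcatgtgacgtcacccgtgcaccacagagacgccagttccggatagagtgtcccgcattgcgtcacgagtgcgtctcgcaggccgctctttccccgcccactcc
Rps2: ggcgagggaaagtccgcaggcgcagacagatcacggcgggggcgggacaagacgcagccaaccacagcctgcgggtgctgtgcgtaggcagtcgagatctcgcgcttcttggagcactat
The second set holds the 3 with a promoter called lower by the widest margin, at chr10:80292331-80292450 (plus strand) for Rps15, chr1:39367751-39367870 (plus strand) for Rpl31 and chr9:44407614-44407733 (plus strand) for Rps25.
Rps15: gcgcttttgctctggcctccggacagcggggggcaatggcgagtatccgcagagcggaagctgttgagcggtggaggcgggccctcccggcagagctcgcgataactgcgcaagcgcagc
Rpl31: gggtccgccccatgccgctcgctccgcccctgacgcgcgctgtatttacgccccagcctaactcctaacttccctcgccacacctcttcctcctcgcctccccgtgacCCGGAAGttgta
Rps25: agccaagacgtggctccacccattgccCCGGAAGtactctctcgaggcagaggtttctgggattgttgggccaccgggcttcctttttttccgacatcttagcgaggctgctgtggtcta
The third set holds the 3 most abundant members with a TOP-like start, at chr17:27635225-27635344 (minus strand) for Rps10, chr2:180257279-180257398 (plus strand) for Rps21 and chr16:33056382-33056501 (plus strand) for Rpl35a.
Rps10: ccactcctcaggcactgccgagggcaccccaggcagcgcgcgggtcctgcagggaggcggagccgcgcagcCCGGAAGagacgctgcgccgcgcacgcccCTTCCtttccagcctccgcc
Rps21: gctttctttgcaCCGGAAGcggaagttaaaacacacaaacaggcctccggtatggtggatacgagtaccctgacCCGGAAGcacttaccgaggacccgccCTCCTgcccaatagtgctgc
Rpl35a: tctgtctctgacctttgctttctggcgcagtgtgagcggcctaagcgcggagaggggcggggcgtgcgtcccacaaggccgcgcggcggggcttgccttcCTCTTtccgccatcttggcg
CCGGAAG lay in the windows of Rpl31 and Rps25 of the second set and outside the printed window, but within the 300 bases, of Rps2. The letters were not in the 300 bases of Rplp0, Rpl18 or Rps15.

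The libraries held 101060608 to 178086164 unique molecular identifiers (UMIs, each standing for a captured transcript) in controls and 14967680 to 69411387 in tumors. They held 75222 to 86516 barcodes in controls and 9001 to 26341 in tumors. The groups did not overlap in either, and the part of this in the results was not tested. After quality filters 1721 to 6365 cells per mouse were kept, with a median of 2032 to 6512 UMIs per cell, which gave 20403 control and 15916 tumor cells. ZFTA-RELA transcripts were at 0 UMIs in every control and at 6 to 699 in the tumors. The 28 pairs of libraries that could be compared shared 1 to 9 kept barcodes. Control replicate 4, whose barcode list was shorter than its matrix, was left out of these pairs. Tumor replicates 4 and 5 stood apart from the other 7 mice in the makeup of their RP transcripts, so counts are also given without them. Cells were assigned to types by lists of 10 marker genes read against the free RNA of their own library, which here means the RNA in the 3000 deposited barcodes with the fewest UMIs. These barcodes held medians of 691 to 1338 UMIs in controls and 559 to 649 in tumors. The lowest total in any library was 468 to 517 UMIs, and damaged cells among these barcodes cannot be told apart from free RNA. In tumor replicate 3, which had 9001 barcodes in all, these 3000 were also candidates for cells, and 0 of them were kept as cells. These gates are named after the list. Progenitors were instead taken from cells that passed no other gate, by the number of markers alone. Within the microglia/macrophage gate its own list had medians of 29.0 to 69.0 UMIs per cell in controls and 99.0 to 264 in tumors. In the same cells the neuron list had medians of 10.0 to 19.0 UMIs in controls and 0 to 4.0 in tumors, and in the endothelial, astrocyte and oligodendrocyte gates 9.0 to 19.5 and 0 to 4.0. Neuronal RNA was thus present in control gates of other types, and its part in the results was not tested. Shares after subtraction of free RNA are given for the microglia/macrophage gate, and those computed for other gates are not reported here. Mice are the samples throughout, and n counts mice.

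RP transcripts took a larger share of all UMIs in tumors than in control brains. The share was 3.60, 3.95, 3.68 and 3.92% in control replicates 1 to 4 and 7.78, 15.6, 11.2, 14.04 and 12.8% in tumor replicates 1 to 5. Every tumor lay above every control, and tumor replicate 1 was the lowest of the tumors. The means were 3.79% ± 0.172 (SD, n = 4) in controls and 12.3% ± 2.997 (SD, n = 5) in tumors, a difference of 8.49 percentage points. Over every deposited barcode, kept or not, the share was 5.72 to 6.39% in controls and 7.45 to 13.4% in tumors, a difference of 4.97 points. Because the 2 groups hold different cells, a change in cell makeup and a change within cells cannot be told apart in this sum. Mitochondrial transcripts made up 7.56 to 8.54% of UMIs in controls and 2.11 to 9.65% in tumors, and the nuclear RNA Malat1 made up 8.36 to 9.87% and 1.75 to 3.98%. With both left out of the total, RP shares were 4.32 to 4.75% in controls and 9.01 to 17.2% in tumors. In free RNA the share was 6.36 to 6.97% in controls, above that of their cells, and 6.91 to 10.4% in tumors, where it lay below that of the cells of the same library in all 5.

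**Figure D1:**
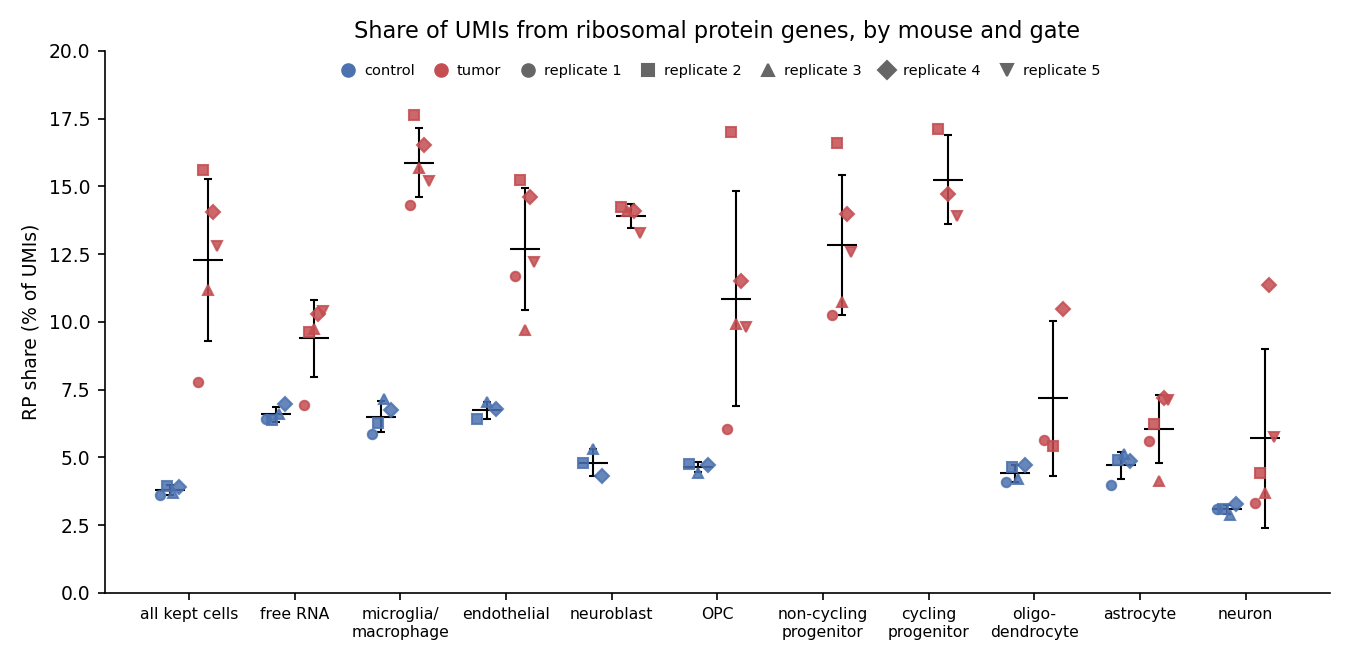
Share of UMIs from the 79 RP genes (y axis, percent of all UMIs) in each mouse, for all kept cells, free RNA and 9 marker gates with at least 30 cells per mouse (x axis). Symbols are mice, and black bars are group means with SD. Both groups are shown where both had enough cells, and there tumors lie above controls without overlap except in free RNA, where tumor replicate 1 at 6.91% lies within the control range, and in the astrocyte gate, where tumor replicate 3 at 4.11% does.

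Nearly all members moved in the same direction. Of the 77 members with enough UMIs to test over all kept cells, 76 rose in tumors and none fell (edgeR's quasi-likelihood test, p adjusted over all genes tested), where 32.3% of the 17597 genes tested were called higher and 29.4% lower. All 77 were above 0 at an unadjusted p under the threshold, and 77 were called with DESeq2. The median log2 fold change of members was 2.01, against 0.04 over all genes tested, and members ranged from 1.04 to 3.61. The highest value was that of Rpl39l, on few UMIs, and Rplp0 followed at 3.55. In 74 of 79 members the level in CPM, UMIs of a gene scaled to a common library total, was higher in every tumor than in every control, a pattern shown by 23.8% of genes tested. Without tumor replicates 4 and 5, 77 of 77 were called higher.

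Among the members with the smallest p, Rplp0 rose most. It encodes the base of the ribosomal stalk that recruits elongation factors (GRCm38, chr5:115559467-115563727). Its level was 159, 193, 187 and 187 CPM in the controls and 825, 2169, 1412, 1953 and 2238 CPM in the tumors. Every tumor exceeded the highest control more than 4 times over. The log2 fold change was 3.55 ± 0.42 (SE), adjusted p = 0.000235. Rplp1, which encodes an acidic protein of the same stalk, was at 1121, 1181, 1087 and 1137 CPM in controls and 2402, 2788, 3199, 1816 and 2045 CPM in tumors. The groups did not overlap, but the rise was smaller, at 1.35 ± 0.25 (SE), adjusted p = 0.00146. Rplp2, its partner in the stalk and named here after its value was seen, rose by 1.71 on the log2 scale.

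Rps2, a small-subunit protein at the entry of the mRNA channel (chr17:24718116-24721929), was at 225, 236, 243 and 248 CPM in controls and 779, 1804, 1359, 2335 and 1869 CPM in tumors, with a log2 fold change of 3.09 ± 0.41 (SE), adjusted p = 0.000358. Rps9, also of the small subunit, rose by 2.56 ± 0.34 (SE), adjusted p = 0.000332. Of the large subunit, Rpl29 rose by 2.51 ± 0.31 (SE), adjusted p = 0.000264, and Rpl10, which joins late in subunit assembly, by 2.48 ± 0.32 (SE), adjusted p = 0.000312. In these named genes all 5 tumors were above all 4 controls.

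Rpl13, Rps29, Rplp1 and Rps24 were among the members with the highest share of the RP total over the 9 mice. Each UMI is counted once per transcript at its 5′ end, so these levels need no scaling by length. Rpl13, a large-subunit protein, was at 1019, 1051, 1007 and 1028 CPM in controls and 2246, 4703, 2506, 4888 and 3747 CPM in tumors, and rose by 2.13 ± 0.40 (SE), adjusted p = 0.00168. Rps29, a small zinc-binding protein of the small subunit, rose by 1.74 and Rps24 by 1.86 on the log2 scale. All 4 rose, and all but Rpl13 rose by less than the median member.

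**Figure D2:**
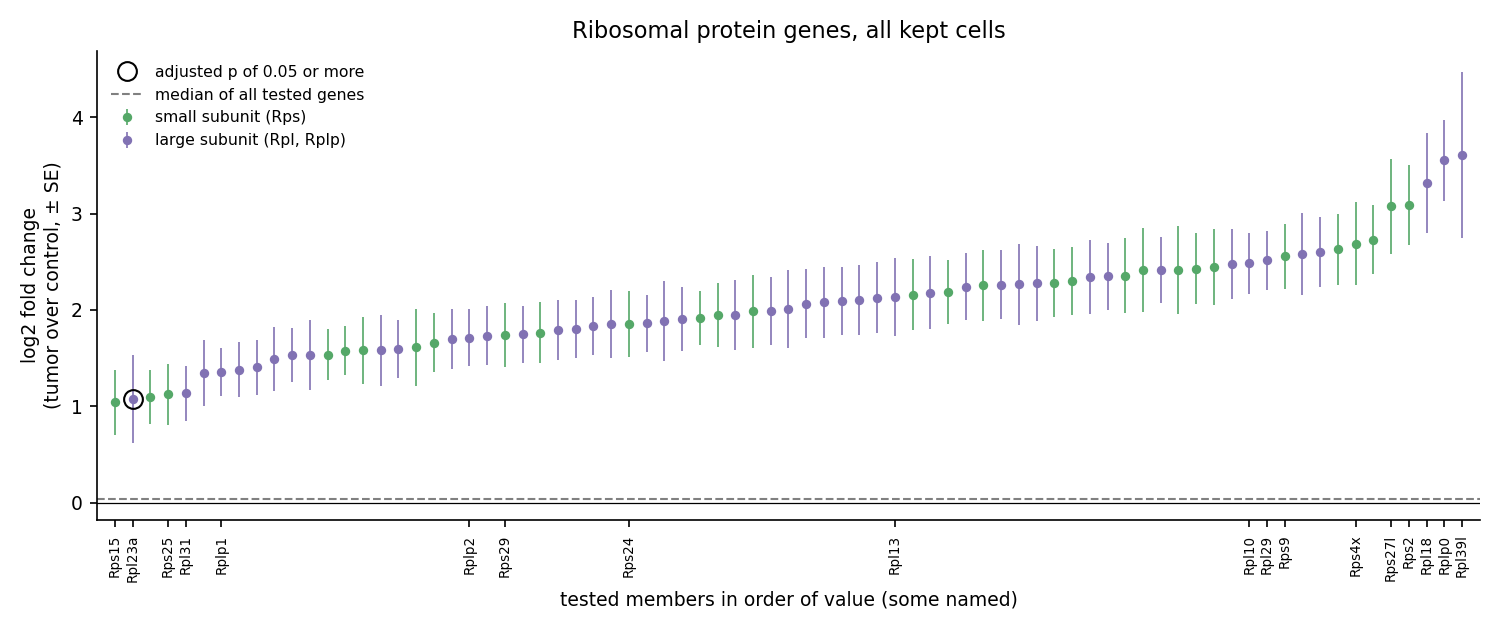
Log2 fold change of the 77 tested RP genes in tumors over controls, all kept cells (y axis, bars are SE), ordered by value along the x axis and labelled for some members, with small-subunit genes in green and large-subunit genes in purple. All lie above the dashed median of all genes tested (0.04), and Rpl23a, circled, is the one member that was not called.

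Rps15, Rpl23a, Rps25 and Rpl31 were among the members with the smallest changes. Rpl23a, a protein at the exit of the nascent-chain tunnel, was at 464, 494, 434 and 467 CPM in controls and 810.3, 1573, 1038, 323 and 367 CPM in tumors, with 1.08 ± 0.46 (SE), adjusted p = 0.0626. Tumor replicates 4 and 5 lay below every control and the other 3 tumors above every control. Rps15, a protein of the head of the small subunit, was at 560.3, 579, 546 and 574 CPM in controls and 974, 1540.3, 1220.5, 629 and 518 CPM in tumors. Again tumor replicates 4 and 5 were the lowest tumors. Replicate 5 lay below every control, and the other 4 tumors lay above. The call of Rps15 was lost without any 1 of the controls. Rpl31 rose by 1.13 and Rps25 by 1.12 on the log2 scale.

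In the microglia/macrophage gate, which held 144 to 214 control cells and 280 to 615 tumor cells per mouse, RP transcripts were at 5.86, 6.25, 7.15 and 6.74% in controls and 14.3, 17.6, 15.7, 16.5 and 15.2% in tumors. Every tumor lay above every control, and the means were 6.499% ± 0.562 (SD, n = 4) and 15.9% ± 1.27 (SD, n = 5). The gate takes microglia and macrophages together. A change in their mix and a change within cells cannot be told apart in it. The test called 74 of 76 members higher, and none lower, where 25.1% of 9276 genes tested were called higher and 23.0% lower, and the median member changed by 1.83 on the log2 scale against 0.08 for all genes. Without tumor replicates 4 and 5 all 76 were called. In 69 of 76 members every tumor lay above every control, which held for 9.78% of genes tested. Neuronal mRNAs in this gate reached 65.8 to 70.2% of their free RNA level in controls and 7.74 to 31.3% in the 4 tumors where it could be measured. After subtraction of free RNA on that basis, RP shares were 4.71, 5.99, 8.17 and 6.29% in controls and 17.7, 19.2, 16.2 and 16.5% in tumor replicates 1, 2, 3 and 5.

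Among members of this gate, Rpl10a, part of the mobile L1 stalk of the large subunit, had the smallest p. It was at 402, 428, 449.7 and 467 CPM in controls and 1476, 1986, 1439.9, 2009 and 1777 CPM in tumors, a change of 2.52 ± 0.24 (SE), adjusted p = 4.41e-05. Rplp0 was at 327, 398, 511 and 473 CPM in controls and 1634, 2699.7, 1924, 3055 and 2574 CPM in tumors, a change of 3.01 ± 0.31 (SE), adjusted p = 5.75e-05. The tumor values of both genes lay well above all control values. Rpl29 changed by 2.26 ± 0.22 (SE), adjusted p = 4.70e-05. Rps2, Rpl22 and Rps16 followed, at 2.75, 2.05 and 2.15 on the log2 scale. The 2 members that were not called were Rps15, at 0.75 ± 0.39 (SE), adjusted p = 0.132, and Rpl23a, at 0.83 ± 0.46 (SE), adjusted p = 0.163.

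In the endothelial gate RP shares were 6.40, 7.03 and 6.76% in control replicates 2 to 4 and 11.7, 15.2, 9.69, 14.6 and 12.2% in the tumors. Control replicate 1 had 27 cells, under the minimum of 30, and was left out. No tumor overlapped a control, and the means were 6.73% ± 0.313 (SD, n = 3) and 12.7% ± 2.26 (SD, n = 5). In this gate 55 of 76 members rose, and none fell, where 8.68% of 8169 genes tested were called higher and 8.95% lower. The median member changed by 1.09 on the log2 scale against 0.06 for all genes. Rplp0 changed by 2.20 ± 0.39 (SE), adjusted p = 0.00727, Rps2 by 2.13 ± 0.32 (SE), adjusted p = 0.00514 and Rpl29 by 1.65 ± 0.26 (SE), adjusted p = 0.00514. Rps26, Rpl22 and Rps3 changed by 1.34, 1.34 and 1.58. Rpl31 at -0.04 and Rpl23a at -0.04 were the lowest. In 61 of 76 members every tumor lay above every control, against 12.5% of genes tested. The count of calls rests on few control cells (30 to 35 per mouse). It was 3 without control replicate 2, 11 without control replicate 3 and 2 without control replicate 4, while the median member stayed at 1.09, 1.19 and 1.101 on the log2 scale and 61, 63 and 60 members had an unadjusted p under the threshold. Rps2 and Rpl29 kept their calls in all 3, Rplp0 lost its call without control replicate 4, and Rps26, Rpl22 and Rps3 lost theirs without control replicate 2 or 4. Without tumor replicates 4 and 5 the count was 41. Markers of other cells moved with the groups in this gate. The mural list had medians of 5.0 to 13.0 UMIs per cell in control replicates 2 to 4 and 0 to 3.0 in tumors, and the astrocyte list 12 to 16 and 2 to 8, and their part in the result was not tested.

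The astrocyte gate showed a smaller difference. Part of its cells met the gate narrowly in both groups. Of control cells 23 of 67, 25 of 74, 31 of 109 and 21 of 80 were under 3 times the free RNA level. Of tumor cells 81 of 244, 10 of 63, 24 of 164, 29 of 65 and 54 of 216 were. The part of this in the results was not tested. RP shares were 3.96, 4.88, 5.11 and 4.85% in controls and 5.61, 6.21, 4.11, 7.19 and 7.10% in tumors, with means of 4.70% ± 0.506 (SD, n = 4) and 6.05% ± 1.26 (SD, n = 5). Tumor replicate 3 lay inside the control range and the other 4 tumors above it. Of 76 members 18 were called higher and none lower, where 16.5% of 6550 genes tested were called higher and 16.2% lower. The median member changed by 0.43 on the log2 scale. In 14 members every tumor lay above every control, against 12.7% of genes tested. Rplp0 was at 174, 236, 256 and 194 CPM in controls and 585, 629, 438, 1012 and 920.2 CPM in tumors, a change of 1.76 ± 0.29 (SE), adjusted p = 0.000391. It did not overlap between the groups here either. Rpl18 changed by 1.46, Rpl10a by 1.06, Rps2 by 1.24, Rpl7 by 1.04 and Rps27l by 1.50 on the log2 scale, all called. In tumor replicate 4 the cells of this gate also carried neural progenitor markers (a median of 42.0 UMIs, against 1.0 to 6.0 in the other mice). The count was 17 without that mouse and 15 without tumor replicates 4 and 5. It was 40 without tumor replicate 3, and 8, 11 and 10 without control replicates 1, 3 and 4.

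**Figure D3:**
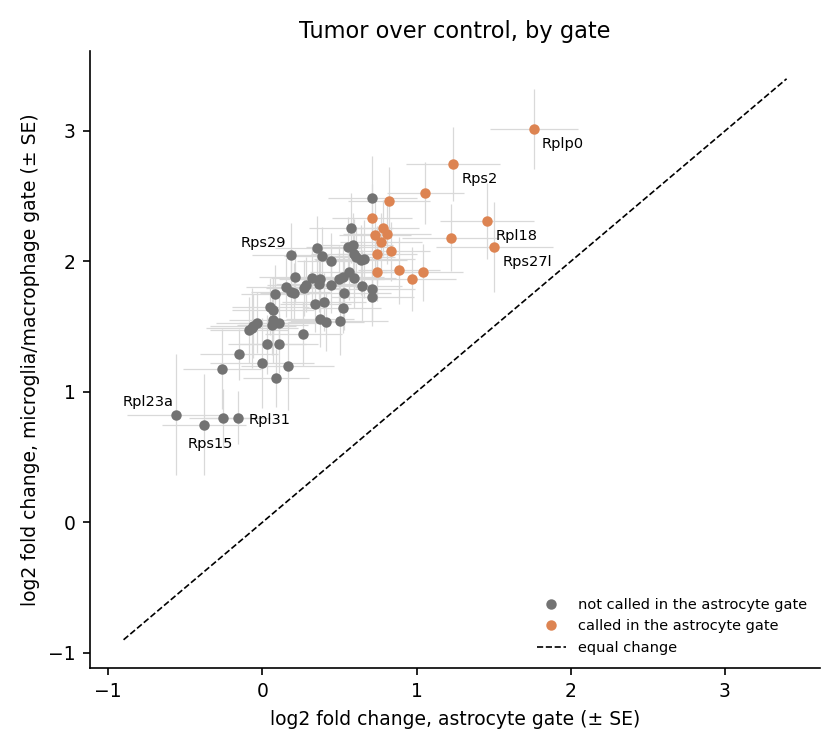
Log2 fold change of 76 RP genes in tumors over controls in the microglia/macrophage gate (y axis) against the astrocyte gate (x axis), with SE bars in both directions. Every point lies above the dashed line of equal change, and the 18 genes called in the astrocyte gate are orange.

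The difference between these 2 gates was tested in a fit with each mouse as its own baseline, a comparison added after the data were seen. Cells under 3 times the free RNA level made up a smaller part of the microglia/macrophage gate than of the astrocyte gate. In the former they were 5 to 17 of 144 to 214 cells per control and 3 to 16 of 280 to 615 per tumor. The part of this in the difference between the gates was not tested. Nor was the part of the mix of microglia and macrophages in the microglia/macrophage gate. The difference between tumors and controls was larger in the microglia/macrophage gate than in the astrocyte gate in all 76 members, and was called so for 75, where 3.38% of 10872 genes tested were called in that direction. The median member differed by 1.44 on the log2 scale against 0.03 for all genes. Rps29 was at 1578, 2030.1, 2271 and 2091 CPM in the microglia/macrophage gate of controls and 4164, 5878, 6827, 6149 and 5772 CPM in that of tumors. In the astrocyte gate it was at 1042, 1518, 1731 and 1354 CPM and 1353, 1429, 1386, 1616 and 2041 CPM. The groups were apart in the first gate and overlapped in the second, a difference of changes of 1.89 ± 0.26 (SE), adjusted p = 0.000235. Rpl27a, Rpl35, Rpl32 and Rpl35a differed by 1.74, 1.75, 1.82 and 1.72 on the log2 scale. Rps27l was the member not called, at 0.64 ± 0.31 (SE), adjusted p = 0.243. The count was 75 without tumor replicates 4 and 5, and 57 when libraries were scaled by their total UMIs, which moved the median of all genes from 0.03 to −0.48. The same scaling moved that median to −0.19 over all kept cells and to −0.43 in the microglia/macrophage gate, where 75 of 77 and 69 of 76 members were still called higher.

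In the oligodendrocyte gate, with 38 to 62 control cells and 112 to 156 tumor cells per mouse compared, the groups' cells differed in how clearly they met the gate. Its own list had medians of 26.0 to 59.0 UMIs per cell in controls and 108 to 149 in these tumors. Of the control cells 27 of 62, 15 of 51, 11 of 38 and 19 of 56 were under 3 times the level from free RNA, where the gate asks for 2.5, and of the tumor cells 0, 0 and 1. The part of this in the results was not tested. RP shares were 4.09, 4.65, 4.19 and 4.71% in controls and 5.62, 5.43 and 10.5% in tumor replicates 1, 2 and 4. Replicates 3 and 5, with 8 and 28 cells, were left out. The difference in means was 2.76 percentage points and fell to 1.11 without tumor replicate 4. Of 76 members 22 were called higher, and none lower, where 10.3% of 4390 genes tested were called higher and 12.2% lower. Rplp0 changed by 2.00 ± 0.31 (SE), adjusted p = 0.00507, Rpl10 by 1.51 ± 0.24 (SE), adjusted p = 0.00541 and Rps9 by 1.251 ± 0.27 (SE), adjusted p = 0.0142. Rpl18 and Rpl14 changed by 1.81 and 1.096 on the log2 scale. In 39 of 76 members every tumor lay above every control, against 12.8% of genes tested. The count of calls was 3, 3, 6 and 3 without control replicates 1 to 4 in turn, while the median member was at 0.77, 0.90, 0.83 and 0.86 on the log2 scale against 0.88 in all mice. Rplp0 and Rpl10 kept their calls in all 4. Rps9 lost its call without control replicate 1, 2 or 4, Rpl18 without control replicate 3 or 4 and Rpl14 without any 1 of the controls. The count was 39 without tumor replicate 1 and 43 without tumor replicate 4, where the median was 0.50. With the replicate number as a block, which does not pair the mice, it was 0 by edgeR, with 23 members at an unadjusted p under the threshold.

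In neuroblast gates, marked by Dcx and the Dlx genes of migrating interneuron precursors, RP shares were 4.78, 5.30 and 4.30% in control replicates 2 to 4 and 14.2, 14.1, 14.1 and 13.3% in tumor replicates 2 to 5. Tumor values lay close together, with a mean of 13.9% ± 0.440 (SD, n = 4). Oligodendrocyte precursor gates ranged more widely among tumors, at 6.04, 16.99, 9.91, 11.5 and 9.80%, against 4.75, 4.41 and 4.73% in control replicates 2 to 4. Of the gates given here, neuron gates held the lowest shares in every mouse but tumor replicate 4. They were 3.09, 3.08, 2.87 and 3.29% in controls and 3.30, 4.404, 3.67, 11.4 and 5.74% in tumors, and tumor replicate 1 barely exceeded the highest control. The high value of tumor replicate 4 belongs to 56 cells with Snap25, a synaptic gene of all neurons, at 10.5 CPM, against 553 to 2022 CPM in the other tumors, so the data go against the name of that gate. These gates were not tested gene by gene.

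Within tumors, cells with neural progenitor markers had high RP shares whether or not they carried cell cycle markers. In tumor replicates 2, 4 and 5, the mice with at least 30 cycling cells, the share was 17.1, 14.7 and 13.9% in cycling progenitors. In progenitors with no cell cycle marker of the same mice it was 16.6, 13.99 and 12.6%. Cycling cells were higher in all 3 mice, by 0.860 ± 0.432 percentage points (SD, n = 3), a difference that was not tested. Both sets were taken by the number of cell cycle markers detected, without a comparison to free RNA. The part of UMIs per cell in this difference was not tested. In the astrocyte gates of these mice the share was 6.21, 7.19 and 7.10%. In the microglia/macrophage gates it was 17.6, 16.5 and 15.2%, above the cycling progenitors in every mouse.

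All 76 members tested were higher in cycling progenitors than in the astrocyte gate of the same tumors, where 15.3% of 11543 genes tested were called higher. The median was 1.26 on the log2 scale against 0.02 for all genes, and members ranged from 0.76 to 1.60. Rpl18 was highest at 1.60 ± 0.24 (SE), adjusted p = 0.000396. Rps27l, at 391, 851 and 566 CPM in cycling progenitors of replicates 2, 4 and 5 and 106, 341 and 233 CPM in their astrocyte gates, differed by 1.52 ± 0.22 (SE), adjusted p = 0.000288. Rps19, Rps7 and Rpl4 differed by 1.56, 1.52 and 1.33. Rps15, Rpl31 and Rpl23a, among the smallest changes between tumors and controls, were called here at 1.08, 1.08 and 1.248. The astrocyte gate of tumor replicate 4 carried progenitor markers, as given for that gate, and without this mouse 66 members were called with a median of 1.29. The count was 51 without the mouse as a block and 66 to 75 with 1 mouse left out.

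Beneath the shared rise, the makeup of the RP pool itself differed between tumors and controls. Over all kept cells, a change in cell makeup and a change within cells cannot be told apart here either. When libraries were scaled to their RP total, so that only the proportions among RP genes count, 11 of 77 members were higher and 7 lower over all kept cells. By this scale 5.56% of all genes tested were called higher and 72.7% lower, since most genes fall when RP genes are held constant. Of the called members Rplp0 stood highest at 1.52 ± 0.22 (SE), adjusted p = 0.000286. Rpl18 followed at 1.21, Rps2 at 1.05, Rps27l at 0.99 and Rps4x at 0.64 on the log2 scale. Among the lowest were Rps15 at -0.83 ± 0.35 (SE), adjusted p = 0.0477, Rpl31 at -0.82, Rps25 at -0.77, Rpl26 at -0.58 and Rpl38 at -0.54. Without tumor replicates 4 and 5, 10 were higher and 3 lower, and 11 of the 18 calls were shared. Rps15, Rps25, Rpl26, Rpl38 and Rps27l were among those lost. The calls of Rps15, Rps25 and Rps4x were also lost without any 1 of the controls. That of Rpl38 was also lost without control replicate 2, 3 or 4 and without tumor replicate 5. Without control replicates 1 to 4 in turn the number of lower members was 4, 3, 3 and 3, and without tumor replicate 5 it was 4.

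The same comparison within the microglia/macrophage gate called 10 of 76 members higher and 7 lower, where 1.79% of 9276 genes were called higher and 84.5% lower. Microglia and macrophages are not separated here, and the part of their mix was not tested. Rplp0 made up 0.558, 0.636, 0.715 and 0.702% of RP UMIs in controls and 1.14, 1.53, 1.23, 1.85 and 1.69% in tumors, a change of 1.19 ± 0.20 (SE), adjusted p = 0.000123. Rpl31 made up 0.739, 0.710, 0.733 and 0.730% in controls and 0.435, 0.402, 0.380, 0.274 and 0.338% in tumors, a change of -0.99 ± 0.18 (SE), adjusted p = 0.000286. Neither gene overlapped between the groups. Rps2, Rpl10a, Rpl35 and Rpl10 were also higher, at 0.91, 0.70, 0.67 and 0.55 on the log2 scale. Rps15, Rpl4, Rpl26 and Rpl24 were lower, at -1.02, -0.72, -0.51 and -0.45. Free RNA of the same libraries showed Rplp0 at 0.409, 0.461, 0.480 and 0.435% of RP UMIs in controls and 0.912, 1.099, 1.17, 1.16 and 1.24% in tumors. It showed Rpl31 at 0.810, 0.829, 0.796 and 0.775% and 0.655, 0.575, 0.625, 0.379 and 0.484%, so the proportions of a whole library moved with those of this gate, and the part of free RNA in them was not tested. The number of higher members was 5, 6 and 6 without control replicates 1, 2 and 4, and the number of lower members was 11 without tumor replicate 1. Without tumor replicates 4 and 5, 9 were higher and 8 lower, and 13 of the 17 calls were shared. The call of Rpl10 was lost without control replicate 1, 2 or 4 and without tumor replicate 1, 2 or 3. That of Rpl35 was lost without control replicate 1 and without tumor replicates 4 and 5, and that of Rpl24 without control replicate 2.

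**Figure D4:**
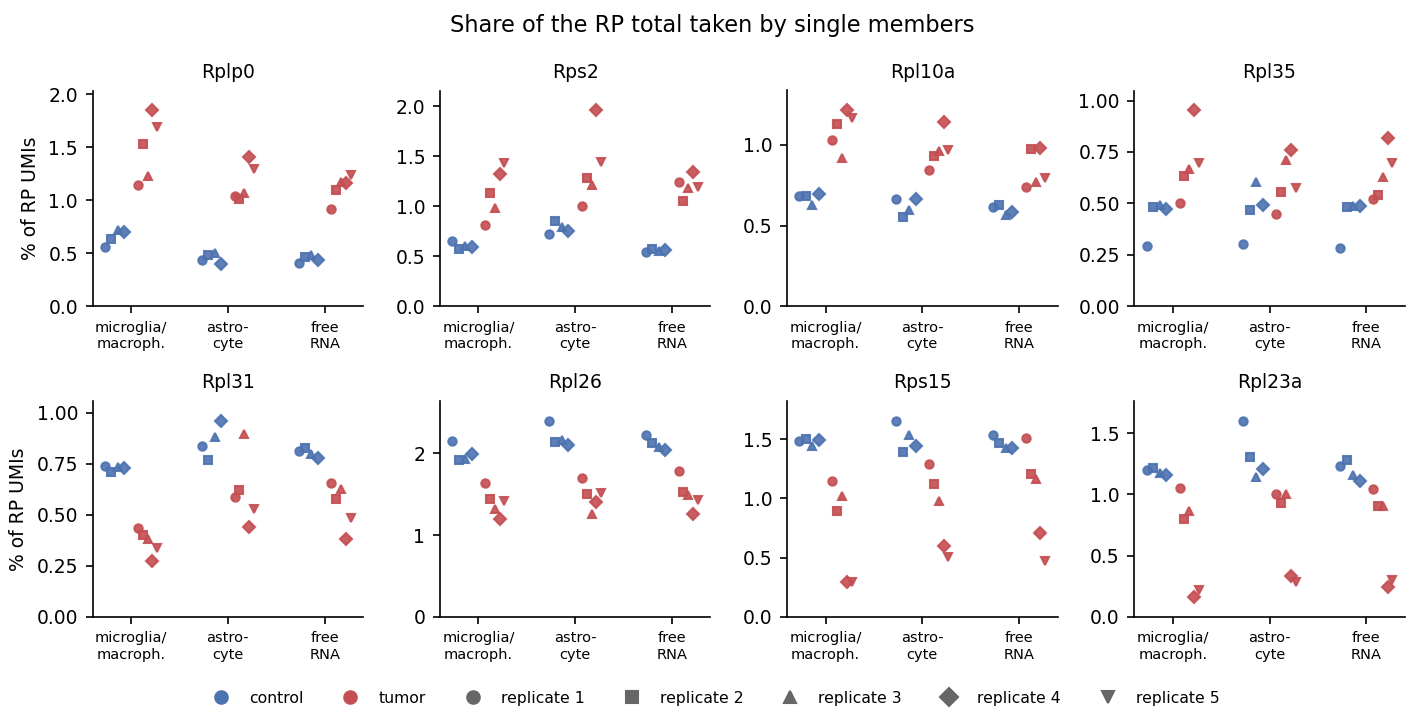
Share of the RP total (y axis, percent of RP UMIs) taken by 8 members in each mouse, in the microglia/macrophage gate, the astrocyte gate and free RNA (x axis). Rplp0, Rps2, Rpl10a and Rpl35 in the upper row are higher in every tumor than in every control in all 3 sources, except Rpl35 in the astrocyte gate, and in the lower row Rps15 and Rpl23a are lowest in tumor replicates 4 (diamonds) and 5 (inverted triangles).

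Part of this difference belonged to tumor replicates 4 and 5. In the microglia/macrophage gate Rpl23a made up 1.20, 1.21, 1.17 and 1.16% of RP UMIs in controls and 1.05, 0.795, 0.865, 0.162 and 0.222% in tumors. Rps15 made up 1.49, 1.51, 1.45 and 1.49% and 1.15, 0.895, 1.02, 0.293 and 0.296%. In both genes replicates 4 and 5 were far below all other mice, and the other 3 tumors were closer to the controls. Over 76 members with a mean share of at least 0.1% of the RP total, 10 were lower in both of these mice than in all others in each of 5 sources (all kept cells, free RNA and the microglia/macrophage, endothelial and astrocyte gates, the endothelial one without control replicate 1). Of all 1170 genes at that level, members among them, 2.22% were lower in this way and 0.769% higher. Of the 1094 that are not members, 16 were lower and 4 higher. On the CPM scale 1 member was lower and 9 higher, against 1.2% and 4.19% of the 1170 genes. Both the 2 mice and the 10 members were chosen by these values, and no other pair of mice was compared in this way. The 5 sources are not separate, since all kept cells hold the cells of the gates and free RNA can be present in each. The 10 include Rpl5, Rpl12, Rpl13a, Rpl23a, Rpl31, Rplp1, Rps12, Rps15 and Rps25. In 5 (Rpl8, Rps3, Rps15a, Rps19 and Rps27l) both mice were above all others in each source, relative to the RP total. Whether this belongs to the mice or to their libraries cannot be told apart. The median coefficient of variation of a member's share was 3.001% among controls and 16.8% among tumors. Rpl23a varied most among tumors, at 57.9%, and Rpl27a least, at 5.63%.

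The balance between the subunits barely moved. Small-subunit genes made up 40.6 to 40.8% of RP UMIs over all kept cells in controls and 41.4 to 42.2% in tumors. Ranges in the microglia/macrophage gate were 41.5 to 42.1% and 42.6 to 43.6%. The groups did not overlap in either source, while in the astrocyte gate they overlapped (40.5 to 41.5% and 40.3 to 41.2%).

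Members whose symbols end in l are variants of other RP genes, and the x of Rps4x marks its chromosome. Rps4x, the X-linked gene of an essential small-subunit protein (chrX:102184941-102189394), was at 362, 407, 389 and 404 CPM in controls and 1134, 2487, 1567, 3271 and 1617 CPM in tumors, a change of 2.69 ± 0.43 (SE), adjusted p = 0.000775. Rps27l, a p53-responsive variant of Rps27 (chr9:66946086-66949516), was at 48.6, 50.1, 45.6 and 45.6 CPM in controls and 134, 293, 189.8, 565 and 406 CPM in tumors, a change of 3.08 ± 0.50 (SE), adjusted p = 0.000812. In both genes every tumor was above every control, and tumor replicate 4 was the highest. The 3 variants known from muscle or testis were nearly silent. Rpl39l, a testis variant of Rpl39, had 1, 5, 3 and 3 UMIs in the controls and 6, 42, 34, 8 and 13 in the tumors. It was called higher over all kept cells on these few counts, and without tumor replicate 1, 2, 3 or 5 it had too few UMIs to be tested. Rpl3l, the muscle variant of Rpl3, had 0 to 8 UMIs per mouse. Rpl10l, the testis variant of Rpl10, had 1 UMI in control replicate 4 and 0 in the other 8 mice, which allows up to 0.0797 to 0.508 CPM in each. Neither was tested.

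Many RP genes have processed pseudogenes that can take reads from them, and the authors' counting could split such reads or leave them out. In the GENCODE annotation of the same build 58 of the 79 members had at least 1 copy listed as a numbered pseudogene of their symbol, 288 copies in all. Rpl31 and Rps12 had 24 each, Rpl23a 14, Rps2 11 and Rpl13 6, so single values of these genes are less certain. The files listed 5 such copies and Rps27rt, a retrogene of Rps27, and these 6 together held at most 0.109% of the members' UMIs in any mouse.

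Other genes of the translation machinery were read from lists. Of 9 RP genes whose symbols fall outside the rule, 8 rose and none fell over all kept cells, with a median log2 fold change of 1.87, where 32.3% of all genes tested rose and 29.4% fell. Rpsa rose by 2.69, Rps3a1 by 2.19 and Fau, the source of the small-subunit protein eS30, by 1.87. In the microglia/macrophage gate 7 of the 9 rose, against 25.1% of all genes, and in the astrocyte gate 1, against 16.5%. The member not called over all kept cells was Rpl22l1. Among 30 translation factors 26 rose and none fell (median 1.36). Tpt1, an mRNA with a TOP tract like those of RP genes, rose by 2.15, the elongation factor Eef1a1 by 1.91 and the initiation factor Eif1 by 1.32. The microglia/macrophage gate showed 22 of these 30 higher and 2 lower (Eef1a2, the neuronal and muscle form of the elongation factor, and Eif4a2), against 25.1% of all genes higher and 23.0% lower. In the astrocyte gate 5 of 29 rose (Btf3, Eef1d, Eif1, Eif5a and Eif6) and Eef1a2 fell, a share of higher genes near the 16.5% of all genes tested there. Neuronal RNA was present in control cells of both gates, as given above, and its part in the fall of Eef1a2 was not tested.

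Of 30 ribosome biogenesis genes, which make and assemble the subunits, 9 rose and 3 fell (Gnl3, Noc2l and Polr1a) over all kept cells, with a median of 0.43, and the share that rose was near the 32.3% of all genes. Npm1, a nucleolar chaperone, rose by 1.51 ± 0.35 (SE), whereas nucleolin (Ncl) was at 0.76 ± 0.38 with an adjusted p = 0.102 and Nop10 at 0.45 ± 0.25 with an adjusted p = 0.137. In cycling progenitors against the astrocyte gate 11 of 29 were higher and none lower, against 15.3% of all genes higher, with Npm1 at 1.58, Ncl at 1.20 and Nop10 at 0.86, all called. Of 78 mitochondrial RP genes, which serve the separate ribosome inside mitochondria, 53 rose and 2 fell (Mrpl3 and Mrps5) over all kept cells (median 0.98), with Mrpl52 at 1.72, Mrps14 at 1.26 and Mrps33 at 0.71. In the microglia/macrophage gate 26 of 75 rose, with a median of 0.52, against 25.1% of all genes and a median of 0.08. In the difference between the microglia/macrophage and astrocyte gates 3.38% of all genes were called higher. Of the lists, 7 of the 9 RP genes outside the rule were called higher (median 1.43), 10 of 30 translation factors (median 0.76), 2 of 29 ribosome biogenesis genes (median 0.45) and 1 of 78 mitochondrial RP genes (Mrpl52, median of the list 0.24), beside 75 of 76 members.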

How the data were processed

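Single cells of 4 control brains and 5 tumors were profiled by 10x 5′ gene expression. The deposited matrices hold UMI counts per gene and barcode that the authors made with Cell Ranger (version 7 by the submitters' notes, which also name mm10 and Scanpy 1.8.2, and version 6.1.2 by the file headers). They are not normalized or reduced to called cells, and each holds 9001 to 86516 barcodes of at least 468 to 517 UMIs. Barcodes with fewer UMIs were not analysed here. The lists of 1 control library were shorter than its matrix and were read by row and column number.

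Cells were sought among the 10000 deepest barcodes of a library. Barcodes with 200 to 6000 genes in the component with the lower mitochondrial share of a 2-component mixture of mitochondrial share and gene number (scikit-learn 1.9.0) were kept. Those with the highest Scrublet scores (Scanpy 1.11.5) were removed as doublets, up to an expected rate that grew with the number of barcodes. The component left out averaged 3.68 and 4.84% mitochondrial UMIs in tumor replicates 4 and 5, against 12.5 to 22.4% in the other mice. With a limit of 10% in place of the mixture, 4291, 9178 and 9139 cells were kept in tumor replicates 3 to 5. The mixture kept 1721, 5121 and 3645 cells in these mice, and more than the limit in the others. Of 16 lists, those of neural progenitors and the cell cycle were set aside at first. A cell joined a gate if at least 3 markers of 1 of the other lists were detected. Their level had to be 2.5 times or more that expected from free RNA and 1.25 times or more that of the next list. Progenitors were taken from cells in no such gate, without a comparison to free RNA. They needed 4 markers, and cycling cells also 3 cell cycle markers. At least 30 cells per mouse were required. This gate rule was set after the data were seen.

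UMI counts were summed per mouse and gate and tested with edgeR 4.0.16 (quasi-likelihood, R 4.3.3) with Benjamini-Hochberg adjustment over all genes tested and a threshold of 0.05. Sums of members were not tested. Alternatives were DESeq2 1.42.0, other filters and scalings, a replicate block and leaving out mice; those without tumor replicates 4 and 5, the subtraction of free RNA and the comparison between 2 gates were added after the data were seen. Members and lists were chosen with earlier results of these data known. Named genes were the 5 members with the highest share of the RP total, the 6 called with the smallest p per comparison and direction (largest change for comparisons relative to the RP total), members ending in l or x, and the 3 genes of each list with most UMIs; others were named after their values were seen, and some genes that this rule names are not reported here. Replicate numbers did not pair the mice (correlations of deviations between same-numbered mice were −0.00130 to 0.0987). No pair of libraries of the same group matched within sampling noise, so each mouse counted once. The labels give no sequencing batch, and where they do not state separate origins, p-values measure the spread between these samples. UMI intervals and limits cover counting error only.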

Additional observations from a re-analysis of the deposited data

Results flagged for a closer look

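In 86 groups of 4 or 5 values, 5 had a mouse far from the others, where chance gives about 1 in 20, and 4 of these are given. Rpl10 made up 0.524% of RP UMIs in control replicate 1, and Rpl35 0.301% in the same mouse, over all kept cells. Rpl32 stood at 1.81% in tumor replicate 5, and Rps29 at 3.20% in tumor replicate 3. The difference between tumors and controls was called larger in the microglia/macrophage gate than in the astrocyte gate, by the test of the difference itself, for 75 of 76 members.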

How the results depend on the processing

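Of the alternatives to the shares and counts of called members, 206 left the value within its limits and 36 moved it. For the genes named by smallest p or, relative to the RP total, by largest change, 766 alternatives kept the direction and the call, 74 lost the call and none turned the direction. Rps15, not among these, lost the call over all kept cells under 5 alternatives. Rpl39l, also not among these, had too few UMIs to be tested under 5. The difference in RP share over all kept cells was 4.97 points over every deposited barcode, that of the microglia/macrophage gate 11.1 with free RNA subtracted, and that of the neuroblast gate 8.23 as a mean over cells. With the replicate block, which pairs mice that share only a number, the counts of higher members were 7 in the astrocyte gate, 0 in the oligodendrocyte gate (edgeR, with 23 at an unadjusted p under the threshold and 28 called by DESeq2 without the block), 4 higher and 2 lower relative to the RP total and 6 higher in the microglia/macrophage gate on that scale. The block moved no other count by over 1.5 times, and 1 of 4 numbers correlated best with itself. A mitochondrial limit gave 41 in the astrocyte and 45 in the oligodendrocyte gate, and could not be run in the endothelial gate. Without a filter on low counts the oligodendrocyte gate gave 41, and 5 were higher relative to the RP total in the microglia/macrophage gate. DESeq2 called 17 higher relative to the RP total, and 3 were lower without tumor replicates 4 and 5. With 1 mouse left out, higher members ranged from 2 to 61 in the endothelial gate, 8 to 40 in the astrocyte gate and 3 to 43 in the oligodendrocyte gate. Relative to the RP total they ranged from 8 to 15 higher and 3 to 9 lower over all kept cells, and from 5 to 10 higher and 5 to 11 lower in the microglia/macrophage gate. The cause was not tested. Few control cells in the endothelial and oligodendrocyte gates limit what those counts show.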

Other observations

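Lymphocyte gates held few cells, and no difference in them was tested. In the T or NK gate, marked by the Cd3 genes and Nkg7, 1 to 15 cells per mouse gave RP shares of 15.3, 16.9, 19.6 and 17.6% in controls and 26.0, 26.7, 29.95, 19.9 and 23.3% in tumors. The exact binomial 95% interval over the UMIs of control replicate 3, with 1 cell, was 18.3 to 21.0%, and that of tumor replicate 3, with 10 cells, 29.5 to 30.4%. These intervals cover the counting of UMIs only, not the spread between cells or mice.

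In the B gate, marked by Cd79a and Ms4a1, 2, 7, 7 and 4 control cells gave RP shares of 9.94, 11.1, 15.9 and 6.36%. In tumor replicates 2 to 5, 1, 5, 3 and 1 cells gave 11.6, 22.5, 17.7 and 21.6%. No value spread over cells is given, since each gate holds the cells of 1 mouse.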
